A study of Homo sapiens with 4 samples.

Results

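ANKRD30BL is a gene on the long arm of human chromosome 2, and the transcripts named ANKRD30BL in the authors' comparison of beta-catenin-bound with input RNA are described here. Of 10098 gene names in both tables, 6489 in the table of HT-29 and 7452 in that of CaCo-2, this is 1 gene. It was chosen by its measured FPKM, which was high in all 4 libraries, so its levels and its ratio of RIP to input are given as a description with no test. It was listed once per table, with the same transcript, ENST00000470729, of the class processed transcript (a spliced RNA without an annotated open reading frame). On the hg19 build the transcript runs on the minus strand of chromosome 2 from 132905164 to 133015542, a span of 110379 bases.

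The study asked which long non-coding RNAs bind beta-catenin in colon cancer cells. HT-29 and CaCo-2 are established human colon adenocarcinoma lines, and neither received a treatment or a genetic change per the labels. Each line gave 1 input library without antibody and 1 RNA immunoprecipitation (RIP) library, in which nuclear lysate was incubated with a beta-catenin antibody and the bound RNA was collected on protein G beads. No value below therefore has a replicate error, and a mock precipitation was not analysed here.

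Beta-catenin is the transcriptional co-activator of the Wnt pathway: when Wnt signals stop its breakdown, it enters the nucleus and switches on target genes with TCF and LEF factors. Both lines carry mutations in this pathway, and colon tumours often do. ANKRD30BL is named for its likeness to ANKRD30B, an ankyrin-repeat gene, and its older names treat it as a pseudogene and as a non-coding RNA. A miRNA gene, MIR663B, lies within it.

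The sequence of MIR663B is shown because it is the one listed RNA that lies inside the ANKRD30BL transcript, on the same strand, and it was listed in CaCo-2. The strandedness of the libraries is not given in the sources used here, and reads from the miRNA gene and from the longer transcript cannot be told apart where they overlap. In the hairpin the capitals mark bases 90 to 111, the mature miRNA. In the mature forms they mark the seed, bases 2 to 8. The mature miR-3648 is printed beside it because its gene is listed in CaCo-2 too, and miR-663a because long RNAs that carry the name MIR663A are listed there, though not its hairpin. All come from RefSeq with the GRCh38.p14 build.
MIR663B hairpin: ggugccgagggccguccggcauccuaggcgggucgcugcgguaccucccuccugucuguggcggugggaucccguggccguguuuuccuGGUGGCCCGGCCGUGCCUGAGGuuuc
hsa-miR-663b: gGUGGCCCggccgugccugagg
hsa-miR-663a: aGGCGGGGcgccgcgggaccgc
hsa-miR-3648: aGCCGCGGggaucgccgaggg
The 3 seeds differ, so miR-663b and miR-663a share a name but not a seed. The hairpin holds 70.4% G and C. Of the 1562 hairpins of the RefSeq table, whose median was 52.1%, 126 (8.07%) held at least as much. RefSeq lists ANKRD30BL as protein_coding in GRCh38.p14, with the synonyms ANKRD30BP3 and NCRNA00164, whereas the deposited tables give it the class of a processed transcript.

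The values are FPKM, fragments scaled by transcript length and library size, 1 per library and transcript. Only transcripts that were higher in the RIP are in the tables: the lowest deposited fold was 1.5 in both lines, so a RIP level above the input is a property of every listed transcript. HT-29 has 9880 transcripts and CaCo-2 11943. The input is listed at 0 for 31.8% and 29.0% of them. FPKM values keep no read depth, so the depth behind each value is unknown. Markers of colon epithelium were listed for 8 of 15 genes in HT-29 (summed 76.1 FPKM in the input and 194 in the RIP) and for 7 of 15 in CaCo-2 (40.7 and 93.7 FPKM), with the keratins KRT8, KRT18 and KRT19 and the galectin LGALS4 in both. Fibroblast (0 of 6 genes) and endothelial markers (0 of 3) were listed in neither line, and of 5 leukocyte markers only the macrophage gene CD68 was listed, in CaCo-2 at 0.954 FPKM in the input and 1.47 in the RIP. A gene missing from a table may be expressed, since only transcripts higher in the RIP are there.

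In HT-29, ANKRD30BL measured 91.6 FPKM in the input and 309 FPKM in the RIP, or 3.37 times the input. In CaCo-2 it measured 116 FPKM in the input and 296 FPKM in the RIP, or 2.56 times the input. Both RIP libraries lay above both inputs, in the order HT-29 input, CaCo-2 input, CaCo-2 RIP, HT-29 RIP. The RIP levels of the lines lay close together, with HT-29 at 1.04 times CaCo-2, while the input of CaCo-2 was 1.26 times that of HT-29. The tables were normalised separately and each level rests on 1 library, so whether neighbours in this order differ cannot be stated. On the log2(FPKM + 1) scale the RIP stood above the input by 1.74 in HT-29 and by 1.35 in CaCo-2. The medians of all listed transcripts were 1.14 and 0.81. Both values pass 2-fold, as did 56% of transcripts in HT-29 and 40.8% of those with at least 1 FPKM in CaCo-2. Where both libraries of a line had to reach 1 FPKM, 25.2% and 13.1% passed it.

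**Figure D1:**
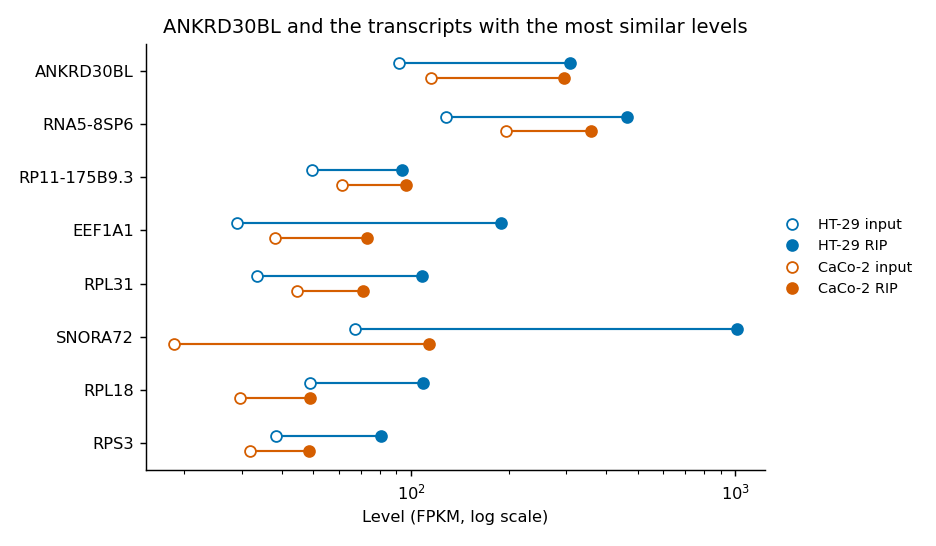
Level in FPKM on a log axis for ANKRD30BL and the transcripts with the most similar levels, with open circles for the input, filled circles for the RIP, blue for HT-29 and orange for CaCo-2, 1 library each. ANKRD30BL runs from 91.6 to 309 FPKM in HT-29 and from 116 to 296 FPKM in CaCo-2, and only RNA5-8SP6 and, in the RIP of HT-29, SNORA72 reach higher.

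ANKRD30BL stood among the most measured listed RNAs that are not small RNAs. Small RNA here means the classes misc_RNA, snoRNA, miRNA, snRNA, rRNA and Mt_tRNA. In HT-29 it ranked 79th of 9880 by input and 130th by RIP over all classes. With the 6 small RNA classes set aside, it ranked 24th by input and 15th by RIP of 9581. In CaCo-2 it ranked 24th by input and 81st by RIP of 11943, and 2nd and 3rd of 11667 with the small RNAs set aside. The fold did not stand as high as the level: 1588 transcripts outside the small RNA classes (16.6%) in HT-29 and 1674 (14.3%) in CaCo-2 had a higher log2 ratio.

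Above it in the RIP of CaCo-2, outside the small RNA classes, were a lincRNA named MIR663A, at 622 FPKM in the input and 957 in the RIP, and AC009977.1, a model of 174 bases listed at 0 in the input and 927 FPKM in the RIP. In HT-29, 14 transcripts lay above it. The highest 5 were RMRP, the RNA of the RNase MRP enzyme (1406 FPKM in the input and 8426 in the RIP), an antisense model named RN7SL1 (344 and 1906), SNORA71B (0 and 1480), the ribosomal protein gene RPL39 (539 and 819) and RBPMS (0 and 754). None of these 5 had a deposited q at or below 0.05 in the authors' deposited table. RMRP, RN7SL1 and SNORA71B span only 268, 300 and 136 bases, although their classes are not among the small RNA classes. RBPMS is also a processed transcript, and it is the reason ANKRD30BL ranked 2nd of 1513 in its class by RIP in HT-29. In CaCo-2 it ranked 1st of 1967, ahead of an EEF1A1 transcript at 73.0 FPKM. The class medians were far lower, at 0.367 FPKM in the input and 2.24 in the RIP of HT-29, and at 0.395 and 1.504 in CaCo-2.

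Transcripts less than 1.5-fold higher in the RIP are not listed, so the comparison with transcripts of similar input covers listed ones only. Among listed transcripts with an input within 1.5-fold of its own, ANKRD30BL had a ratio of RIP to input above the median in both lines. In HT-29 its ratio was below the median of the small RNAs among them. There, 39 listed transcripts of 36 genes had a similar input. Their median log2 ratio was 1.004 (quartiles 0.85 and 2.05, range 0.62 to 5.24), which ANKRD30BL exceeded by 0.74. Of the 39, 12 had a log2 ratio at least as high. These 12 were 10 of the 13 small RNAs in the window, mostly snoRNAs (guides for RNA modification in the nucleolus), and only 2 of the 26 other transcripts, the ribosomal protein genes RPL10 and RPLP2. Against the 13 small RNAs alone, whose median was 2.67, the direction turned, and the excess of ANKRD30BL was -0.93. The 26 others had a median of 0.90, which is 0.84 below ANKRD30BL. Most of them were ribosomal protein and histone genes.

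The transcripts next to it in the input of HT-29 ended on both sides of it in either kind of RNA. RPL10, just below at 89.0 FPKM, reached 638 FPKM in the RIP. RPL3 went from 88.4 to 195 FPKM and RPL37A, just above, from 94.9 to 177 FPKM. Both are mRNAs of ribosomal proteins, and both ended under the 309 FPKM of ANKRD30BL. The snoRNAs around it ended anywhere from 215 FPKM (SNORA51, from 88.3) over 642 (SNORA75, from 95.8) to 3654 (SNORD15A, from 95.9).

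In CaCo-2 few listed transcripts reached such an input. Only 3 lay within 1.5-fold: SNORA80B (101 FPKM in the input and 168 in the RIP), FN1, which encodes fibronectin (105 and 166), and SNORA71D (164 and 303). Their median log2 ratio was 0.72, which ANKRD30BL exceeded by 0.63, and none of the 3 reached its ratio. Against the 2 snoRNAs alone the excess was 0.55. Within 2-fold of its input there were 9, of which 1, SNORA54 (72.8 FPKM in the input and 410 in the RIP), had a higher log2 ratio. SNORA84 (175 and 305) and RNA5-8SP6 (197 and 360) were the next above in the input. All 6 neighbours but SNORA54 had a smaller fold than ANKRD30BL.

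**Figure D2:**
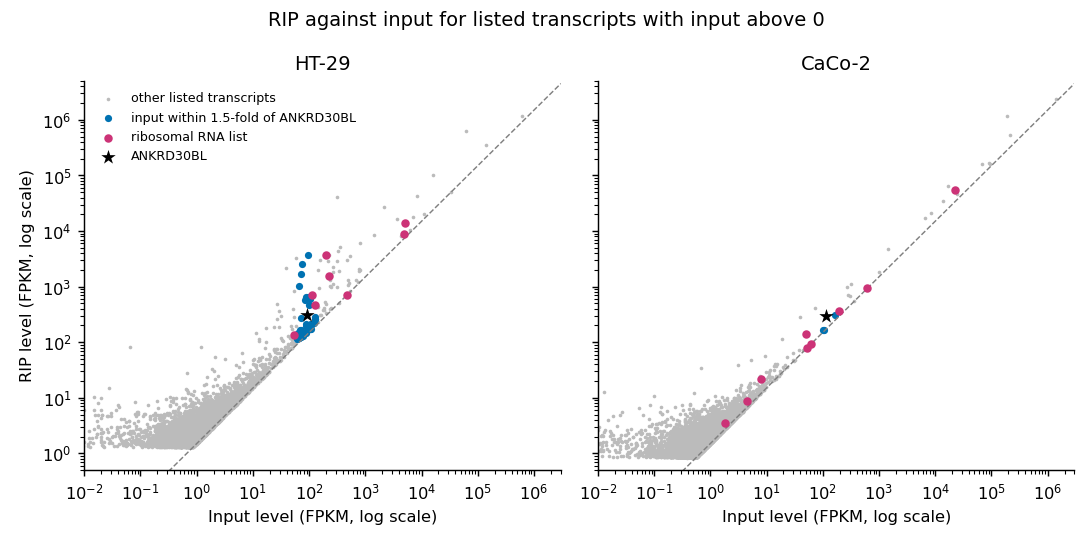
RIP level against input level, both in FPKM on log axes, for listed transcripts with an input above 0 in HT-29 (left) and CaCo-2 (right), where the dashed line marks 1.5-fold, blue points had an input within 1.5-fold of ANKRD30BL and pink points belong to the ribosomal RNA list, and transcripts beyond the axes are not drawn. ANKRD30BL (star) lies above the dashed line at 309 FPKM in HT-29 and 296 FPKM in CaCo-2, and above most blue points of HT-29 and all but SNORA71D of CaCo-2.

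The authors' deposited table gives ANKRD30BL a log2 fold of 1.75 in HT-29, with p = 8.35e-12 and q = 2.8e-08, and the deposited table of CaCo-2 a log2 fold of 1.36, with p = 2.42e-08 and q = 1.83e-05. Both q values lie at or below 0.05, as do those of 3.08% of the transcripts of HT-29 (304 of 9880) and 2.24% of those of CaCo-2 (268 of 11943). By the deposited q it ranked 8th and 22nd. Most called transcripts had an input of 0, 196 in HT-29 and 197 in CaCo-2. Among the transcripts with a measured input, of which 108 and 71 were called, it ranked 4th of 6743 in HT-29, after the histone gene HIST3H2A and the spliceosomal RNAs RNU4-1 and RNU4-2. In CaCo-2 it ranked 3rd of 8477, after the mitochondrial tRNA gene MT-TS1 and FRS2, an adaptor of growth factor receptors.

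ANKRD30BL had one of the smallest model errors of either table. The deposited log2 fold divided by the deposited test statistic gives the error that the authors' model assumed, 0.26 in HT-29 and 0.24 in CaCo-2 on the log2 scale. The median over listed transcripts with a measured input was 1.65 and 1.63. Only 17 transcripts (0.252%) in HT-29 and 6 (0.0708%) in CaCo-2 had a lower one. These errors come from 1 library per side and hold no spread between cultures. The gene was chosen for its high levels, so no interval is built from these errors. Its ranks by error and by q are a description only. In the window of similar input in HT-29, 7 of the 39 transcripts had q at or below 0.05, beside 3.08% over the table. Of the 39, 0 had a lower q than ANKRD30BL. The median model error there was 0.649, with 2.35 among the small RNAs and 0.435 among the others. A small error was not particular to ANKRD30BL (0.256) in that window. The histone genes H2AFZ, HIST1H3B, HIST1H4C, HIST1H3H, HIST1H3C and HIST1H3G and the ribosomal protein gene RPL9 had lower ones, from 0.220 (H2AFZ) to 0.255 (RPL9). None of the 13 small RNAs of that window was called, and 13 are too few to tell this from the 3.08% over the table.

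The deposited log2 fold of HT-29 exceeded that of CaCo-2 by 0.39, a difference that was not tested.

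**Figure D3:**
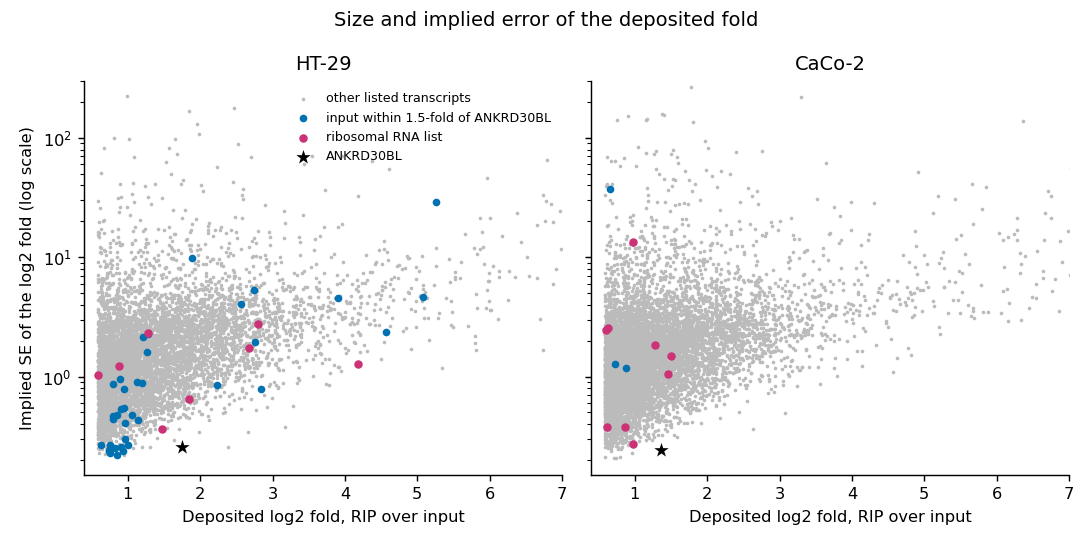
Deposited log2 fold (horizontal axis) against the model error implied by the deposited statistic (log axis) for listed transcripts with an input above 0 in HT-29 (left) and CaCo-2 (right), with colours for transcripts of similar input (blue) and the ribosomal RNA list (pink); transcripts beyond the axes are not drawn. ANKRD30BL (star) sits at the lower edge of both clouds, at a log2 fold of 1.75 with an error of 0.26 and at 1.36 with 0.24.

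Across both lines 1928 transcripts were listed in both tables, and 19 of them (0.985%) had q at or below 0.05 in both, ANKRD30BL among them. Of the 19, 9 had an input of 0 in both lines. With at least 1 FPKM in all 4 libraries, 6 remained, here named after their values were seen: MT-TS1, ANKRD30BL, DHCR7 (the last enzyme of cholesterol synthesis), SLC25A39 (a mitochondrial carrier), ZNF217 (a zinc finger protein) and SYNE2 (a nuclear envelope protein). DHCR7 measured 10.2 FPKM in the input and 40.4 in the RIP of HT-29, and 11.2 and 25.5 in CaCo-2. SLC25A39, ZNF217 and SYNE2 had inputs of at most 9.57 FPKM. ANKRD30BL, at 91.6 and 116 FPKM, had the highest input of the 6 after MT-TS1 in both lines. Past 2-fold in both lines were 47 of the 370 transcripts (12.7%) with at least 1 FPKM in all 4 libraries. Of the 1928 transcripts, which leave out those less than 1.5-fold higher in either RIP, 12 held at least 50 FPKM in all 4 libraries. ANKRD30BL was the 1 of these 12 outside the small RNA classes. The other 11 were 3 mitochondrial tRNAs, 7 snoRNAs and RNA5-8SP6. Of the 12, 7 passed 2-fold in both lines, ANKRD30BL included. The gene was chosen for its high level in all 4 libraries, so its place among the 12 restates that choice.

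The transcript whose 4 levels were most like those of ANKRD30BL was RNA5-8SP6, a copy of a small ribosomal RNA of the large subunit. It measured 128 FPKM in the input and 462 in the RIP of HT-29, and 197 and 360 FPKM in CaCo-2. Its distance from ANKRD30BL over the 4 log2(FPKM + 1) values was 1.11, and the next, the processed pseudogene RP11-175B9.3, was at 2.66. Its RIP level was 3.61 times the input in HT-29 and 1.83 times in CaCo-2, and it was called in neither line (deposited q 0.130 and 0.361). RP11-175B9.3 ran from 49.6 to 93.8 FPKM in HT-29 and from 61.4 to 96.6 in CaCo-2, below ANKRD30BL in each library. A processed transcript of EEF1A1, the elongation factor, followed at 3.10, with 29.1 and 190 FPKM in HT-29 (CaCo-2: 38.0 and 73.0 FPKM). RPL31 (33.5 and 108, then 44.5 and 71.3 FPKM) lay at 3.21 and SNORA72 (67.2 and 1010, then 18.6 and 113.2 FPKM) at 3.41. Outside the small RNA classes, RPL18 at 3.66 (48.9 and 109, then 29.6 and 48.6 FPKM) and RPS3 at 3.90 (38.2 and 81.0, then 31.9 and 48.6 FPKM) completed the nearest 5. The likeness is over 4 libraries and 1928 transcripts and describes levels only.

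A list of ribosomal RNA genes and copies, with a few miRNA and lincRNA loci added by name, had levels on both sides of that of ANKRD30BL in both lines. The added loci were listed in CaCo-2 alone, and their likeness to ribosomal RNA was not analysed here. In HT-29 there were 25 such transcripts, 17 of them with an input of 0 and 14 with a higher RIP level than ANKRD30BL. The copies with a measured input were RNA5S9 (5124 FPKM in the input and 14217 in the RIP), RNA5SP149 (4781 and 8804), RNA5SP202 (201 and 3656), RNA5SP298 (226 and 1578), RNA5SP242 (111 and 711), RNA5SP145 (467 and 705), RNA5SP355 (54.5 and 133) and RNA5-8SP6. The other 17, all at 0 in the input, reached between 26.5 FPKM (RNA5SP225) and 1949 FPKM (RNA5SP74). They were RNA5SP22, RNA5SP33, RNA5SP48, RNA5SP74, RNA5SP99, RNA5SP150, RNA5SP155, RNA5SP195, RNA5SP199, RNA5SP225, RNA5SP267, RNA5SP304, RNA5SP336, RNA5SP349, RNA5SP481, RNA5SP513 and a model named 5S_rRNA. Past 2-fold were 23 of the 25, beside 56% over the table, and called by q was 1, RNA5S9 (q 0.00608), beside 3.08%. The median log2 ratio was 6.49, against 1.14 over the table, where 31.8% of transcripts had an input of 0. With an input of 0 the ratio is set by the RIP level alone. The 8 copies with a measured input had log2 ratios from 0.59 (RNA5SP145) to 4.18 (RNA5SP202).

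In CaCo-2 the list held 20 transcripts of 18 genes, 11 with an input of 0, and 3 had a higher RIP level than ANKRD30BL. The added loci were MIR663B, MIR3687 (22776 FPKM in the input and 55459 in the RIP), MIR3648 (8.04 and 22.2), LINC00273 (4.48 and 8.84) and 3 lincRNAs named MIR663A (622 and 957, 50.1 and 141, 1.82 and 3.58). In RefSeq, MIR663A lies inside MIR663AHG, a host gene, as MIR663B lies inside ANKRD30BL. The folds of those with a measured input, from 1.54 for the highest MIR663A transcript over 2.44 for MIR3687 to 2.82 for the second MIR663A transcript, lay around the 2.56 of ANKRD30BL. RNA5SP336 (62.1 and 94.6 FPKM) and RNA5SP150 (51.4 and 79.9) had smaller folds of 1.52 and 1.55. RNA5-8SP3 was listed at 0 and 4.63 FPKM. The other listed copies, RNA5SP144, RNA5SP187, RNA5SP212, RNA5SP250, RNA5SP267, RNA5SP273, RNA5SP383, RNA5SP500 and RNA5SP513, had an input of 0 and between 23.7 and 124 FPKM in the RIP. Of the 20, 14 passed 2-fold, beside 40.8% of the listed transcripts with at least 1 FPKM. Called was 1, LINC00273 (q 0.0263), beside 2.24% of all listed transcripts. The median log2 ratio was 3.56, against 0.81 over the table, where 29.0% of transcripts had an input of 0. The 9 list transcripts with a measured input had log2 ratios from 0.60 (RNA5SP336) to 1.48 (the second MIR663A transcript). Whether reads of ribosomal RNA take part in the level of ANKRD30BL was not tested.

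MIR663B spans 115 bases, from 133014539 to 133014653 on hg19, and starts 889 bases downstream of the start of the ANKRD30BL transcript. It was listed in CaCo-2 at 0 FPKM in the input and 56.4 FPKM in the RIP, with a deposited q of 1. That level is the lowest that any transcript of its length showed: both listed transcripts of 115 bases had it (within 0.3%), and those of 114 and 116 bases had minima of 61.8 and 51.6 FPKM. The level of ANKRD30BL in the same library was 5.25 times as high, per length of its own spliced transcript.

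No listed neighbour on the chromosome came near the level of ANKRD30BL. Within 1 Mb of the transcript, HT-29 listed PLEKHB2 (3.90 FPKM in the input and 7.57 in the RIP), POTEKP (0.278 and 2.35, q 0.0158), a pseudogene of the ankyrin-repeat POTE family, and GPR39 (1.60 and 2.59), a zinc-sensing receptor whose gene begins 159 kb beyond the start of ANKRD30BL. CaCo-2 listed 2 transcripts of PLEKHB2 (0.563 and 0.868, 0.392 and 1.68), AC093838.4 (0.645 and 1.15), NCKAP5 (0.137 and 1.43) and MIR663B. The RIP level of ANKRD30BL was 40.8 to 131 times that of these neighbours in HT-29 and 176 to 341 times in CaCo-2, leaving aside MIR663B. The list of genes of this region held 5 transcripts per line. MZT2B, a part of the microtubule-nucleating complex, had its highest levels besides MIR663B, at 16.3 FPKM in the RIP of HT-29 and, for another transcript, 4.90 in CaCo-2. None of the region list had a q at or below 0.05, beside 3.08% and 2.24% over the tables. With 5 transcripts per line, the list is too short to tell this from those shares.

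**Figure D4:**
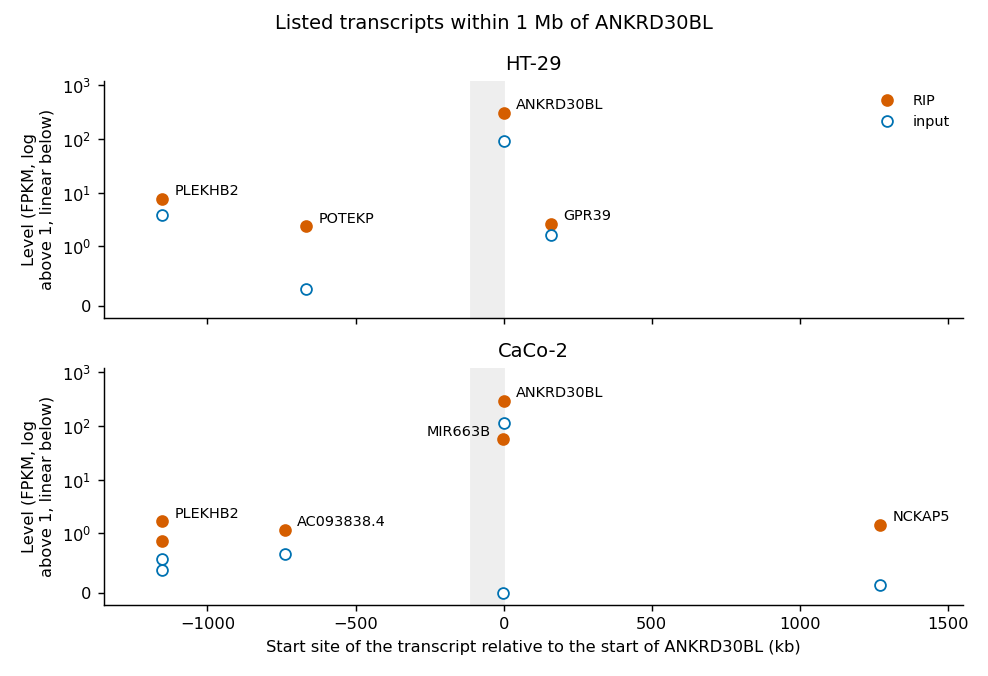
Level in FPKM (log scale above 1, linear below) of the listed transcripts within 1 Mb of ANKRD30BL, against the distance of each transcript's start site from that of ANKRD30BL along the chromosome in kb, with filled circles for the RIP, open circles for the input and the ANKRD30BL span in grey. ANKRD30BL reaches 309 and 296 FPKM in the RIP, while no neighbour other than MIR663B (56.4 FPKM) passes 7.57 FPKM.

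The span of ANKRD30BL is long for a listed transcript of this level. Among the 116 listed transcripts with an input of at least 50 FPKM in HT-29 and the 32 in CaCo-2, none spanned more. The second longest were RPL37A (30605 bases) and FN1 (75203 bases). Another 488 and 642 listed transcripts span at least 110379 bases. Their highest RIP levels were 25.1 FPKM (APP, the amyloid precursor protein gene) in HT-29 and 24.5 FPKM (AC004702.2) in CaCo-2. FPKM is scaled by the spliced length, which the tables do not give, and where along the transcript its reads lie was not analysed here.

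Other listed ankyrin-repeat genes did not share its level. No other member of the ANKRD30 family was listed in either line, and of the POTE family only POTEKP was, in HT-29. The ankyrin-repeat list had 36 transcripts of 21 genes in HT-29, with RIP levels of 1.32 to 40.7 FPKM, and 45 of 24 genes in CaCo-2, with 0.845 to 9.10 FPKM. The highest was a processed transcript of ANKRD10 in HT-29, listed at 0 and 40.7 FPKM, and a transcript of ANKHD1 in CaCo-2, at 5.10 FPKM in the input and 9.10 in the RIP. For ANKRD11, a chromatin regulator, the highest transcript of HT-29 measured 4.50 and 11.0 FPKM, and another transcript, the highest of CaCo-2, 2.40 and 4.14 FPKM. Past 2-fold were 23 of 36 of these transcripts in HT-29, beside 56% over the table. In CaCo-2 they were 13 of 45, beside 4129 of all 11943 listed transcripts. The median log2 ratios of 1.197 and 0.85 lie near the table medians of 1.14 and 0.81. Called by q, beside 3.08% and 2.24% over the tables, were 1 in HT-29 (ANKHD1, 0 to 2.97 FPKM, q 0.0148) and 2 in CaCo-2 (ANKZF1, 0 to 2.10 FPKM, q 0.0190, and ANKS6, 0.325 to 1.53 FPKM, q 0.0148).

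Genes of the nucleolus and of ribosome assembly were listed at lower levels than ANKRD30BL. HT-29 had 35 transcripts of 15 of the 20 genes, with RIP levels of 1.36 to 30.7 FPKM, and CaCo-2 had 31 of 15, with 0.862 to 8.39 FPKM. The highest were NHP2, a snoRNP protein (19.3 FPKM in the input and 30.7 in the RIP), and nucleolin, NCL (17.3 and 27.2), in HT-29, and nucleophosmin, NPM1 (4.96 and 8.39), in CaCo-2. Past 2-fold were 19 of 35 in HT-29, beside 56% over the table. In CaCo-2 they were 16 of 31, beside 4129 of all 11943 listed transcripts. The median log2 ratios were 1.18 and 1.03. Called by q were 2 per line, beside 3.08% and 2.24% over the tables. In HT-29 they were GAR1 (0 to 4.18 FPKM, q 0.0386) and TCOF1 (0 to 1.59 FPKM, q 0.0387), and in CaCo-2 TCOF1 (0 to 5.38 FPKM, q 1.51e-09) and POLR1B (0.979 to 2.91 FPKM, q 0.0442). The TCOF1 transcripts called in the lines were different ones. TCOF1 encodes treacle, a factor of ribosomal RNA transcription, and POLR1B a subunit of RNA polymerase I.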

How the data were processed

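RIP and input RNA of 2 cell lines were sequenced, with 1 library per group, so 4 libraries in all. Per the submitters' processing notes, the tools were Bowtie2, TopHat2 2.0.8, Cufflinks, Cuffdiff and CASAVA 1.4, and the build was hg19. The sources used here give no strandedness, read depth or further versions. The authors deposited, per line, a table of FPKM levels per Ensembl transcript, read as FPKM from the tools named. The same deposited tables hold the authors' fold on the log2 scale, test statistic, p-value and q-value.

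Levels were compared as log2(FPKM + 1), a pseudocount of 1 that shrinks ratios of low levels. Shares past 2-fold over a table cover transcripts reaching 1 FPKM in the input or the RIP, unless all listed transcripts or a stricter filter are named. Counts past 2-fold in a gene list, and counts of deposited q at or below 0.05, cover all listed transcripts. Similar input means an input within 1.5-fold, among listed transcripts. The implied error is the deposited log2 fold over the test statistic. The deposited p equals the 2-sided normal p of that statistic (within 2%) in 100% of listed transcripts with an input above 0. Likeness is the Euclidean distance over the 4 libraries among transcripts in both tables. No test was made. Transcripts named are ANKRD30BL, the nearest 5 by likeness overall and outside the small RNA classes, the 3 next above and below in input, up to 5 with a higher RIP level, those within 1 Mb, all ribosomal RNA, ANKRD30 and POTE list members, and up to 4 of the ankyrin-repeat, nucleolar and region lists by RIP level. Members with q at or below 0.05 were named too. The gene and the lists, the marker lists included, were chosen with earlier results of these data known. The scripts were tested on copies of the deposited data with planted values. They used Python 3.11.15, pandas 2.3.3, numpy 2.4.6 and matplotlib 3.10.9.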

Additional observations from a re-analysis of the deposited data

How the results depend on the processing

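With 1 library per group no library could be left out, and the verdict on each value was read against 1 implied error of the authors' model. The ANKRD30BL log2 ratio ran from 1.65 to 1.75 in HT-29 and from 1.29 to 1.36 in CaCo-2 over pseudocounts of 10, 1, 0.1 and 0 FPKM. Its excess over listed transcripts of similar input ran from 0.66 to 0.84 in HT-29 and from 0.63 to 0.70 in CaCo-2. These ranges cover the narrower, main and wider windows with every class, and the 1.5- and 2-fold windows without small RNAs. The narrower window without small RNAs gave 0.87 in HT-29 and 0.70 in CaCo-2. Leaving out snoRNAs alone, an alternative chosen after seeing the data, gave 0.81 and 0.70. The CaCo-2 windows without small RNAs hold 1 or 2 transcripts. RNA5-8SP6 was nearest under all 3 likeness measures, and the alternatives shared 5 and 4 of the 5 nearest. Counts past 2-fold moved more: from 5529 to 863 in HT-29 and from 4129 to 338 in CaCo-2 where at least 1 FPKM was required in both libraries, and to 6802 in CaCo-2 with a pseudocount of 0.1 FPKM (7388 in HT-29). Within a line no paired analysis was possible, because each line has 1 input and 1 RIP library. A fit of RIP against input with the line as a block was not run, since the tables list only transcripts higher in the RIP. The depth is unknown, so which small differences the libraries could resolve cannot be stated.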
